A study of Mus musculus with 69 samples.

Results

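Chaperonins are the large chambers in which newly made proteins fold. The mRNA of 10 chaperonin genes was followed in mouse T cells that differed in their number of Stat5a and Stat5b alleles. Of the 10, 7 encode subunits of the cytosolic chaperonin CCT (Tcp1, Cct2, Cct3, Cct4, Cct5, Cct7 and Cct8) and 3 encode mitochondrial chaperones (Hspd1, Hspe1 and Hspa9). They were taken by name from a table of 24309 gene symbols, and the set was chosen with earlier results of these data known. STAT5A and STAT5B are transcription factors that cytokine receptors switch on, and the comparisons ask how far each of them is needed for the response of T cells to IL-7 and IL-15.

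WT cells were Stat5a+/+ Stat5b+/+, AAB cells were Stat5a-/- Stat5b+/- and kept 1 Stat5b allele, and BBA cells were Stat5a+/- Stat5b-/- and kept 1 Stat5a allele. The alleles were missing from every cell of these adult mice, so the cells had also developed with less STAT5. CD8+ cells sorted from pooled lymph nodes and spleen as naive (Tnv), memory (Tcm) or effector memory (Tem) gave 48 libraries, 2 for each of the 3 genotypes in 8 conditions: Tnv and Tcm given no cytokine, IL-7 or IL-15, and Tem given no cytokine or IL-15. Naive CD4+ cells (CD44 low, CD62L high) of the same genotypes, without cytokine or with IL-7, gave 15 libraries in groups of 2 or 3. AAB cells that were activated and transduced with an empty vector or with a constitutively active form of STAT5A (CA-STAT5A) gave 4. The labels state a culture of 12 to 16 hours for all cells, whereas the study's methods describe the cells without cytokine as processed directly, so that culture and cytokine cannot be told apart in any comparison of cells with and without cytokine. Genotypes were compared within 1 condition. The study also names low-grade inflammation as a trait of several STAT5-deficient mouse lines.

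CCT, also called TRiC, is a double ring built of related but different subunits. It folds actin, tubulin and other proteins of the cytosol, often after prefoldin has handed them over. Hspd1 encodes HSP60 and Hspe1 encodes HSP10, which together form the barrel and lid of the mitochondrial chaperonin. Hspa9 encodes mortalin, the mitochondrial HSP70, which pulls proteins through the inner membrane and passes them on for folding. Growing cells need more of both kinds of chaperone, and heat shock factor and MYC are known regulators of chaperone genes.

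The genes lie on 9 chromosomes of GRCm38, and Hspd1 and Hspe1 are the only neighbours among them. Hspd1 spans chr1:55077835-55088243 on the minus strand and Hspe1 spans chr1:55088132-55091307 on the plus strand. They are arranged head to head and overlap by 112 bases at their 5′ ends. Whether the authors counted by strand is not given in the sources used here, so reads from the overlap could have been lost or assigned to the wrong partner, and the values of both genes are uncertain to that extent. No promoter window was available for Cct4, and Hspa9 was left out of the promoter search, so neither was searched. Promoter windows of RefSeq (GRCm38.p6, 250 bases before to 50 after an annotated start) were taken for 8 of the 10 genes, with 11 windows. They were searched on both strands for 3 letter patterns, which all read the same on either strand: the E-box CACGTG that MYC can bind, the STAT pattern TTCNNNGAA, and GAANNTTC, a pair of heat shock units. The stretches that hold a match are shown because these are the letters that the named regulators recognise, with the match in capitals.
Hspd1, E-box: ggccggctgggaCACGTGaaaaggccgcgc
Cct5, STAT pattern: cccccctcggTTCGTGGAAaacggacgttc
Hspe1, heat shock units: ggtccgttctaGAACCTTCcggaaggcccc
Cct2, heat shock units: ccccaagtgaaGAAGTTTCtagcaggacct
The Hspd1 match (chr1:55088306-55088335, minus strand) lies 80 bases upstream of an annotated first base. That of Cct5 (chr15:31601895-31601924, minus strand) lies 68 bases upstream, that of Hspe1 (chr1:55088053-55088082, plus strand) 84 bases upstream, and that of Cct2 (chr10:117063399-117063428, minus strand) 42 bases upstream. The heat shock pair of Hspe1 is also in a second Hspd1 window, read on the other strand, because the 2 genes share this stretch. Of all 32851 promoter windows, 7.15% held the E-box, 8.3% the STAT pattern and 7.86% the heat shock pair. A match is a string of letters in a window and was not tested for binding.

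Libraries held 5926139 to 25612758 counts on genes in CD8+ cells, 6705004 to 34118295 in CD4+ cells and 11020965 to 16516525 in transduced cells. All 10 genes passed the filter on low counts in every fit. Levels are given in CPM, the usual unit that sets a gene's count against the total of its library, here after scaling of the totals by TMM (trimmed mean of M values), and groups of 2 or 3 libraries limit the precision of every comparison. By the study's account the replicates were mice assayed in several trials, but which libraries shared a trial is not given in the sources used here. In 7 of 8 CD8+ conditions, libraries with the same replicate number deviated from their group means with correlations over 0.1 for every pair of genotypes. Counts with the replicate number as a block are given in the closing part, and in some comparisons they differ from those given here. The sex of the mice, read from Xist and Ddx3y, was female in all 36 CD8+ libraries without cytokine or with IL-15, male in all 6 of Tnv with IL-7 and in 4 of 6 of Tcm with IL-7, and male in all CD4+ libraries. In Tcm with IL-15, Stat5a was 82.0 and 90.5 CPM in WT, 41.8 and 44.1 CPM in BBA and 2.62 and 2.60 CPM in AAB. Stat5b was 175 and 210.1 CPM in WT, 96.1 and 93.2 CPM in AAB and 65.2 and 74.4 CPM in BBA, where reads on Stat5b remained. The summed level of the CD8 T cell markers found in the table (4 of 5 listed) was 1978 to 4287 CPM over all CD8+ groups. Libraries of 2 CD4+ samples with contradicting labels entered no comparison.

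The largest differences between genotypes were in Tcm with IL-15, where all 10 genes had their highest levels in WT and their lowest in BBA. A gene was called changed when its fold change exceeded 1.5 and its adjusted p was under 0.05 in edgeR's quasi-likelihood test over all genes. By this rule 9 of the 10 were higher in WT than in BBA, while 23.5% of all genes tested were called in either direction and 11.8% as higher in WT. The median log2 fold change of the 10 was 0.997, beside -0.02 over all genes.

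Hspd1, the HSP60 gene, was 313 and 249 CPM in WT, 160 and 156 CPM in AAB and 101 and 85.7 CPM in BBA. The 3 groups did not overlap, and the BBA mean was 33.3% of the WT mean. WT exceeded BBA 2.89-fold, with a log2 fold change of 1.53 (SE 0.138, adjusted p = 0.000491). Hspe1, which encodes its lid, was 160 and 129 CPM in WT, 107 and 98.9 CPM in AAB and 69.1 and 64.5 CPM in BBA. WT again lay above the other groups, by 2.08-fold over BBA (log2 1.05, SE 0.124, adjusted p = 0.00107). Hspa9, the mitochondrial HSP70, was 360 and 308 CPM in WT, 208 and 205 CPM in AAB and 126 and 107 CPM in BBA. Its WT level was 2.75-fold that of BBA (log2 1.46, SE 0.119, adjusted p = 0.000336).

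Among the CCT subunits, Cct3 differed most. It was 352 and 307 CPM in WT, 207 and 207 CPM in AAB and 132 and 121 CPM in BBA, and WT exceeded BBA 2.50-fold (log2 1.32, SE 0.102, adjusted p = 0.000269). Cct8 was 369 and 305 CPM in WT, 242 and 241 CPM in AAB and 168 and 154 CPM in BBA, a difference of 2.01-fold between WT and BBA. Tcp1, the subunit that gave the complex its older name, was 319 and 286 CPM in WT, 205 and 209 CPM in AAB and 154 and 138 CPM in BBA, or 1.99-fold. Cct5, Cct7 and Cct2 were called at 1.74-fold, 1.74-fold and 1.72-fold. Cct4 was the exception. Its levels of 289 and 254 CPM in WT and 188 and 183 CPM in BBA gave 1.40-fold (log2 0.49, SE 0.0934, adjusted p = 0.00648), which was under the limit of fold. Subunits of one ring thus spanned log2 differences of 0.49 to 1.32, and the mitochondrial genes 1.05 to 1.53. When either WT or BBA library was left out in turn, the number called was 9 each time.

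**Figure D1:**
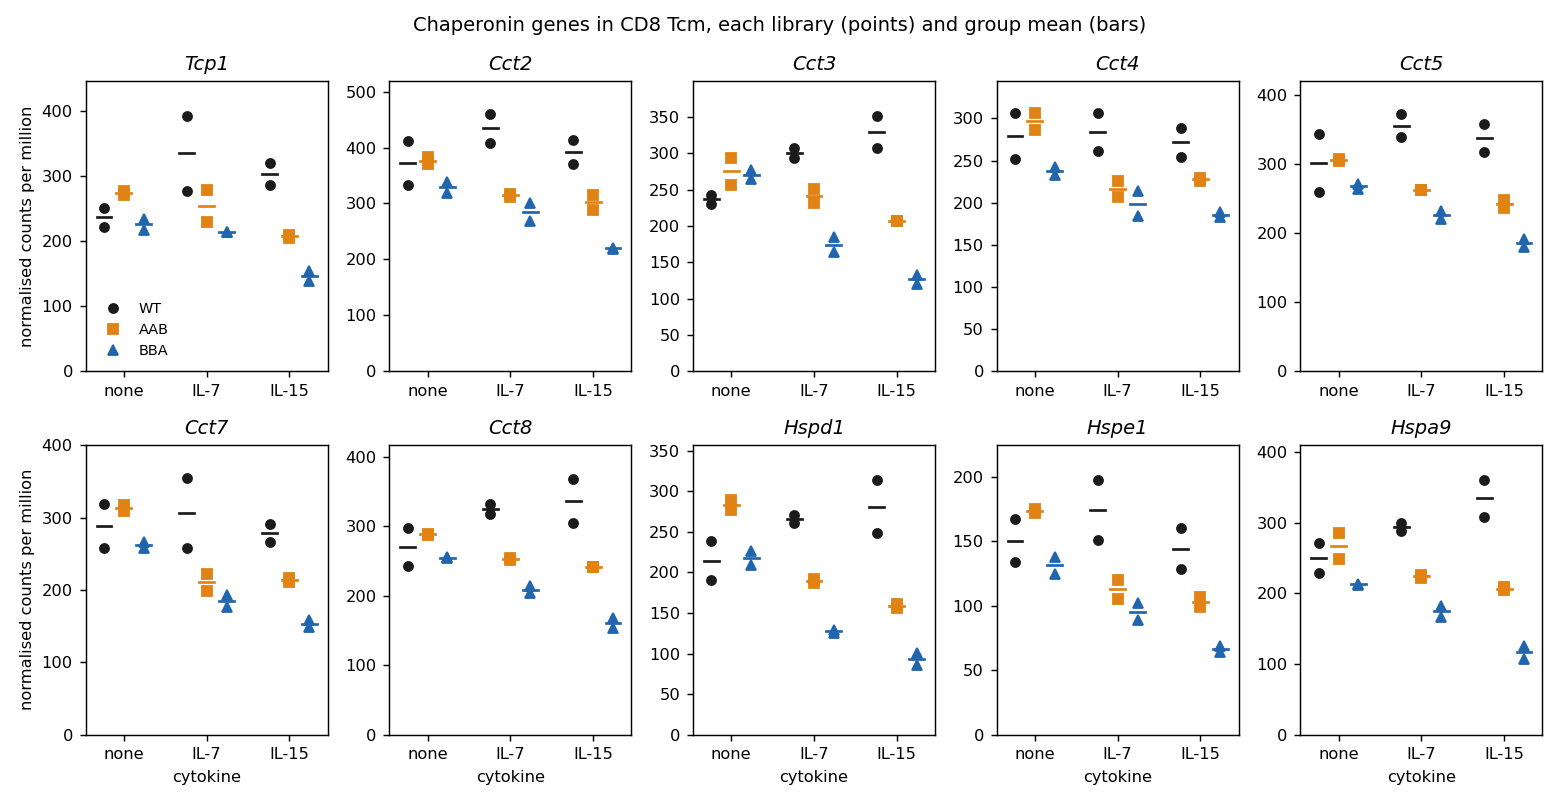
Levels of the 10 genes in Tcm by cytokine (none, IL-7 or IL-15) and genotype, in CPM, with 1 panel for each gene, 1 point for each library and a line for each group mean. With IL-15, WT lies above AAB and AAB above BBA in all 10 panels, with Hspd1 at 313 and 249 CPM in WT and 101 and 85.7 CPM in BBA.

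AAB cells had levels between those of WT and BBA in Tcm with IL-15, an order that did not hold in every condition. In Tcm with IL-15 every WT library exceeded every AAB library and every AAB library exceeded every BBA library for 10 of 10 genes, an order that 17.7% of all genes tested showed. The AAB mean was 56.4% of the WT mean for Hspd1, 61.9% for Hspa9, 62.9% for Cct3 and 83.9% for Cct4. Only Hspd1 (log2 0.78, SE 0.134), Hspa9 (0.65, SE 0.116) and Cct3 (0.62, SE 0.0997) were called in WT over AAB, beside 4.29% of all genes. In AAB over BBA, Hspa9 (log2 0.81, SE 0.118), Hspd1 (0.75, SE 0.137), Cct3 (0.70, SE 0.101) and Hspe1 (0.61, SE 0.124) were called, beside 5.85% of all genes. Both counts turned on single libraries. No gene was called in WT over AAB without WT replicate 1, AAB replicate 1 or AAB replicate 2, and 3 were called without WT replicate 2. None was called in AAB over BBA without AAB replicate 1, AAB replicate 2 or BBA replicate 2, and 3 were called without BBA replicate 1. WT over AAB and WT over BBA share the WT libraries.

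Other summed marker levels differed between these groups. The 4 memory markers Cd44, Il2rb, Eomes and Tbx21 summed to 1618 to 1665 CPM in WT, 1365 to 1443 CPM in AAB and 830.5 to 884.5 CPM in BBA. The 4 naive-state markers summed to 2597 to 2764 CPM in WT and 3627 to 3910 CPM in BBA. The 5 B cell markers summed to 93.0 to 174 CPM in WT, 68.8 to 191 CPM in AAB and 192 to 404 CPM in BBA, the 5 myeloid markers to 6.90 to 8.88 CPM in WT and 30.2 to 50.7 CPM in BBA, and the 4 proliferation markers to 105 to 114 CPM in WT, 65.2 to 128 CPM in AAB and 44.3 to 75.4 CPM in BBA. Their part in the differences of the 10 genes was not tested. In bulk libraries fewer cells of a type and less RNA per cell cannot be told apart.

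The same direction was seen in the other cultures with cytokine, with fewer calls. Over 5 such comparisons of WT with BBA in CD8+ cells, 49 of 50 log2 fold changes were positive and they ran from -0.04 to 1.53. Of all genes, 47% to 51.3% were positive in these comparisons. The members varied together over the CD8+ groups, so the 50 values are not separate observations. In 3 comparisons without cytokine, 14 of 30 were positive, from -0.35 to 0.23, as were 9 of 30 with plain library totals and 21 of 30 without the filter on low counts. The called genes were Hspd1 in Tnv with IL-7, where 2.69% of all genes were called, Cct3, Hspd1 and Hspa9 in Tnv with IL-15 (9.31% of all genes), Hspd1 in Tcm with IL-7 (3.09%) and Hspa9 in Tem with IL-15 (1.76%). Hspd1 was thus called in 4 of the 5 cultures, Hspa9 in 3, Cct3 in 2, Cct4 in none and the others in 1.

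In Tnv with IL-7, Hspd1 was 260 and 252 CPM in WT, 237 and 191 CPM in AAB and 139 and 131 CPM in BBA, and no group overlapped another. WT exceeded BBA by log2 0.93 (SE 0.134, adjusted p = 0.0244). The call was lost when any of the 4 WT and BBA libraries was left out. Memory markers summed to 236 to 255 CPM in WT and 342 to 420.3 CPM in BBA, B cell markers to 8.80 to 15.5 CPM and 30.2 to 50.6 CPM, and their part was not tested. In Tnv with IL-15 it was 183 and 133 CPM in WT, 98.8 and 87.6 CPM in AAB and 97.6 and 73.7 CPM in BBA, so that AAB and BBA overlapped. WT over BBA was 0.84 (SE 0.205, adjusted p = 0.0443), beside 0.93 for Cct3 (SE 0.155, adjusted p = 0.0111) and 0.94 for Hspa9 (SE 0.178, adjusted p = 0.0186). WT replicate 2 of this culture carried Cd4 and Zbtb7b at 319 CPM in sum, against 10.4 CPM in replicate 1. Summed myeloid markers were 5.92 to 10.1 CPM in WT and 45.5 to 78.8 CPM in BBA, and B cell markers 43.9 to 128 CPM and 99.6 to 206 CPM, and their part was not tested. Without that library 4 of the 10 genes were called, and 1 without WT replicate 1, BBA replicate 1 or BBA replicate 2.

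In Tcm with IL-7, called genes were higher in WT in 46.2% of cases, or 29.2% with plain library totals. Hspd1 was 271 and 261 CPM in WT, 187 and 192 CPM in AAB and 126 and 129 CPM in BBA, in the same order as with IL-15. It was called at a log2 fold change of 0.99 (SE 0.126, adjusted p = 0.0213). The other members ran from 0.44 to 0.80, and 10 of 10 reached an unadjusted p under 0.05, as did 24.8% of all genes. The memory markers summed to 1775 to 2362 CPM in WT and 705.7 to 770.4 CPM in BBA, the B cell markers to 18.5 to 42.5 CPM and 149 to 255 CPM, and both WT libraries were male while AAB and BBA had 1 of each sex. With a term for sex no member was called. Counts of members called were 6 without WT replicate 1, 7 without WT replicate 2, and 0 without BBA replicate 1 or BBA replicate 2. In Tem with IL-15, Hspa9 was 221 and 189 CPM in WT, 156 and 137 CPM in AAB and 101 and 88.9 CPM in BBA. It was called at 1.08 (SE 0.139, adjusted p = 0.0339), and not when any of the 4 WT and BBA libraries was left out. Hspd1 in these cells had a larger log2 fold change, 1.11 (SE 0.201, adjusted p = 0.0599), and was not called. With the replicate number as a block 6 members were called in these cells. Summed memory markers were 1101 to 1497 CPM in WT and 848 to 1106 CPM in BBA, and myeloid markers 6.21 to 27.0 CPM and 23.2 to 118 CPM. The libraries of Tem with IL-15 varied most, with a biological coefficient of variation of 29.6% against 12.0% in Tcm with IL-15.

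**Figure D2:**
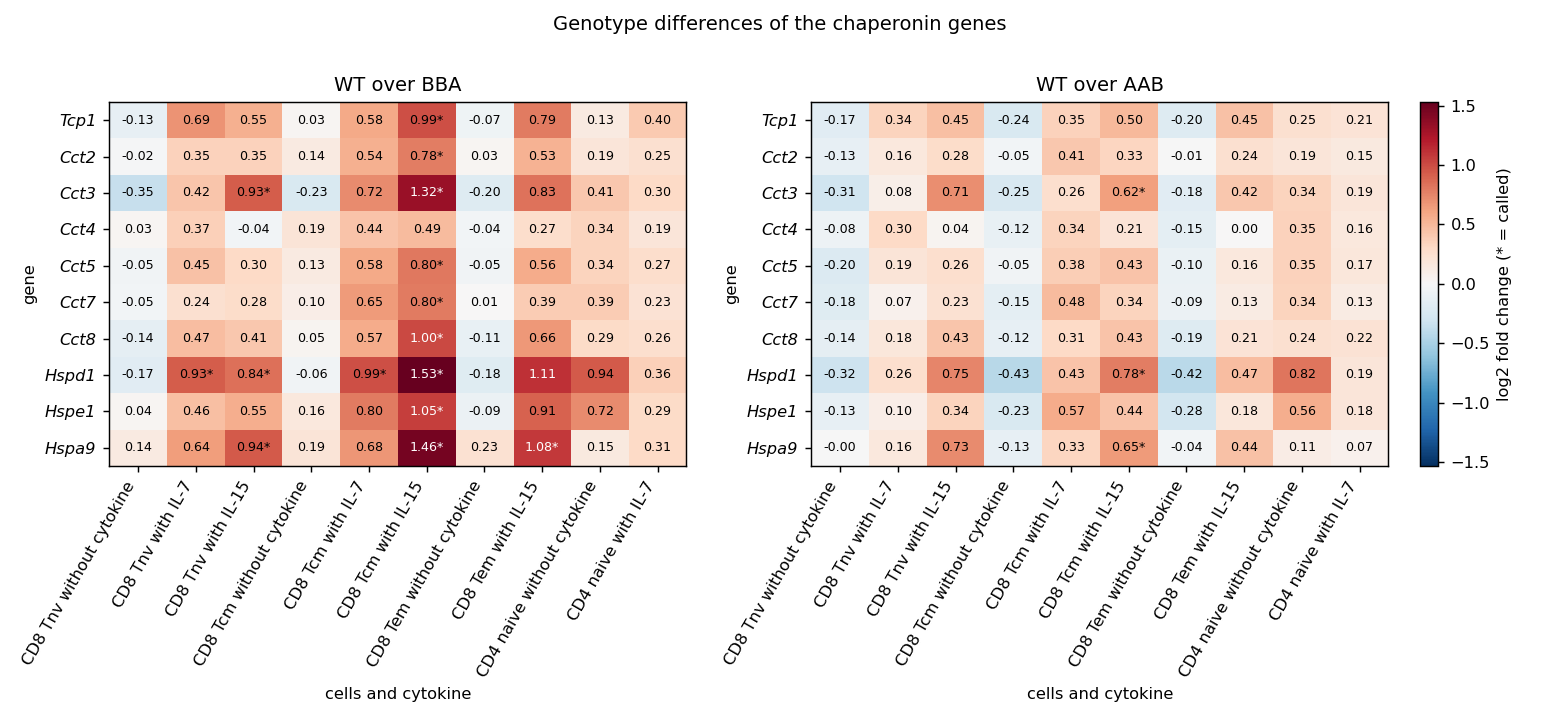
Log2 fold changes of WT over BBA and of WT over AAB for the 10 genes in each CD8+ and CD4+ condition, with a mark on the values that were called. Tcm with IL-15 holds 9 called values in WT over BBA, and the conditions without cytokine hold none.

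Without cytokine no member was called in any comparison of genotypes. In WT over BBA 2.75% of all genes were called in Tnv, 0.277% in Tcm and 0.206% in Tem, in WT over AAB 0.164%, 0.0395% and 0.0197%, and in AAB over BBA 0.523%, 0.0395% and 0.0197%. Of the 10 genes, 1, 0 and 0 had an unadjusted p under 0.05 in WT over BBA, 4, 1 and 1 in WT over AAB, and 0, 2 and 0 in AAB over BBA, beside 3.82% to 22.7% of all genes, and DESeq2 called none either. In Tcm Hspd1 was 238 and 191 CPM in WT, 277 and 289 CPM in AAB and 209 and 226 CPM in BBA, so that WT and BBA overlapped. All 10 genes had lower levels in WT than in AAB in each of the 3 states without cytokine, by log2 -0.43 to -0.0038 in fitted values, none of them called. With plain library totals 29 of these 30 values were negative, and 26 without the filter. Of all genes, 49.2% to 50% were positive in these comparisons with the filter and TMM scaling. With cytokine, WT over AAB called no member outside Tcm with IL-15. All genes were called at 0.256% in Tnv with IL-7, 0.726% in Tnv with IL-15, 0.0594% in Tcm with IL-7 and 0.0196% in Tem with IL-15, and members with an unadjusted p under 0.05 numbered 1, 5, 6 and 3, beside 9.61%, 14%, 11.4% and 7.28% of all genes. DESeq2 called 3 in Tnv with IL-15 and none in the others. In AAB over BBA the shares were 0.148%, 0.0706%, 0.0891% and 0.00982% with no member called, 2, 0, 3 and 6 members under an unadjusted p of 0.05 (8.38%, 6.65%, 6.66% and 7.19% of all genes), and 1, 0, 0 and 1 member called by DESeq2.

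With IL-15, 30 of 30 log2 values of the members over Tnv, Tcm and Tem were negative in BBA and 23 were called, 30 of 30 were negative in AAB and 10 were called, and none was called in WT. Of all genes, 47.6% to 51.7% had positive values in the 6 comparisons of BBA and AAB. Hspd1 fell in all 6 of these comparisons. In Tcm of BBA it went from 209 and 226 CPM without cytokine to 101 and 85.7 CPM with IL-15 (log2 -1.20, SE 0.132, adjusted p = 0.000501), and in Tem from 218 and 221 CPM to 81.6 and 68.9 CPM (log2 -1.55, SE 0.174, adjusted p = 0.00176). Cct3 followed in Tcm, from 264 and 277 CPM to 132 and 121 CPM (log2 -1.08, SE 0.113, adjusted p = 0.000393). In WT Hspd1 was 238 and 191 CPM without cytokine and 313 and 249 CPM with IL-15 in Tcm, and 209 and 187 CPM and 194 and 139 CPM in Tem, and it was not called in either.

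In BBA cells with IL-15, 7 members were called as lower in Tnv, 7 in Tcm and 9 in Tem, beside 19.0%, 5.13% and 7.46% of all genes called in either direction. In AAB cells these counts were 7, 2 and 1, beside 14.7%, 0.895% and 2.0%. In WT cells they were 0, 0 and 0, beside 5.72%, 3.74% and 1.69%, with 2, 5 and 1 members at an unadjusted p under 0.05 (23.2%, 21.3% and 15.4% of all genes) and none called by DESeq2. Cct4 was called in none of these, although its values in BBA and AAB were negative. Scaling by plain library totals raised the median log2 value of all genes by 0.02 to 0.14 over 15 responses of CD8+ cells to IL-7 or IL-15, and the share of called genes that were higher with IL-15 went from 52.7% to 71.2% in BBA Tcm and from 44.2% to 63.2% in BBA Tem. With it 17 of the 30 BBA values and 9 of the 30 AAB values were called, and 1 turned positive (Cct4 in BBA Tnv, 0.03). For IL-7 the comparison was also one of sexes, as all 6 Tnv libraries with IL-7 were male and the 6 without cytokine female, so that sex, culture and cytokine cannot be told apart, and in Tcm 4 of 6 against 0 of 6 were male. With IL-7 the counts in BBA were 2 in Tnv (Cct3 and Hspd1; 10.1% of all genes) and 2 in Tcm (the same pair of genes; 5.86%). In AAB they were 0 in Tnv (13.0%) and 1 in Tcm (Hspe1; 4.27%), and in WT 0 (18.7%) and 0 (3.16%), with 2 and 4 members at an unadjusted p under 0.05 (39.6% and 19.4% of all genes) and none called by DESeq2 in WT. AAB in Tnv had 1 such member (33.3% of all genes) and none by DESeq2. Responses of the 3 genotypes to 1 cytokine use separate libraries, but IL-7 and IL-15 responses of a genotype share the libraries without cytokine. Single libraries moved some counts. For Tcm with IL-15 in BBA the 7 became 3 without BBA replicate 2 without cytokine and 2 without BBA replicate 2 with IL-15. For Tem the 9 became 6 without either BBA replicate without cytokine, and 3 without BBA replicate 2 with IL-15. In AAB the 2 calls in Tcm were lost without any 1 of the 4 libraries and the 1 call in Tem without AAB replicate 1 or 2 without cytokine or replicate 2 with IL-15. With IL-7, the 2 calls of BBA Tnv became 1 without BBA replicate 1 or 2 without cytokine and 0 without BBA replicate 2 with IL-7, those of BBA Tcm became 0 without BBA replicate 2 of either culture, and the AAB call in Tcm was lost without any of its 4 libraries.

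**Figure D3:**
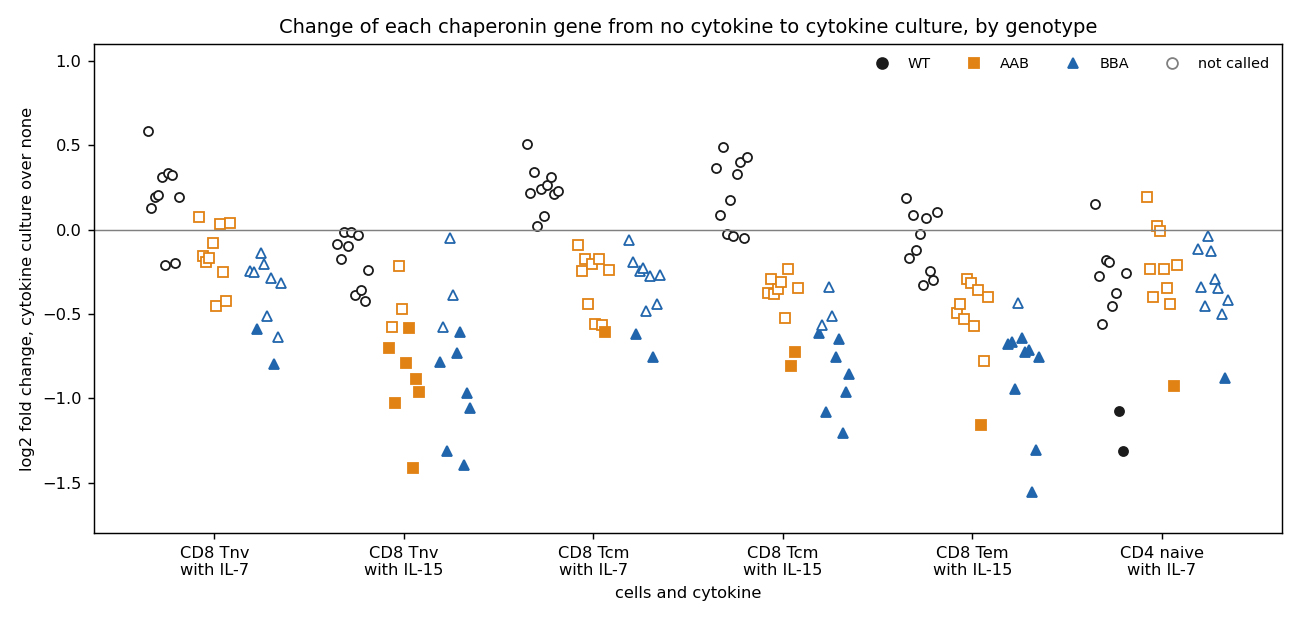
Log2 fold change of cells with cytokine over cells without, with 1 point for each of the 10 genes, in WT, AAB and BBA cells of 5 CD8+ cultures and of naive CD4+ cells; filled points were called. With IL-15 all 30 CD8+ values are negative in BBA (29 with plain library totals) and all 30 in AAB, with 23 and 10 of them called.

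The difference in response was tested by itself, as the WT response minus that of the other genotype. In Tcm with IL-15, 8 of the 10 responses differed between WT and BBA, beside 4.49% of all genes. Hspd1 differed by log2 1.60 (SE 0.184, adjusted p = 0.000985), Cct3 by 1.57 (SE 0.158, adjusted p = 0.000954) and Hspa9 by 1.28 (SE 0.176, adjusted p = 0.0022). Cct8 (0.98), Tcp1 (0.98), Hspe1 (0.91), Cct5 (0.69) and Cct2 (0.65) were also called, while Cct7 (0.72, adjusted p = 0.0548) and Cct4 (0.32, adjusted p = 0.363) were not. With single libraries left out 4 to 7 members were called, since leaving out WT replicate 2 and BBA replicate 2 without cytokine, WT replicate 1 with IL-15 or either BBA replicate with IL-15 gave 4, BBA replicate 1 without cytokine 5, WT replicate 2 with IL-15 6 and WT replicate 1 without cytokine 7. In the other cultures Hspd1 and Cct3 differed in Tnv with IL-15 (1.04 and 1.30; 1.48% of all genes), both in Tcm with IL-7 (1.06 and 0.96; 1.08%), and Hspd1 in Tnv with IL-7 (1.12; 1.86%). In Tcm with IL-7 both WT libraries were male, BBA had 1 of each sex and those without cytokine were female, and with a term for sex 2 members were called (1.05 for Hspd1 and 1.04 for Cct3). In Tnv with IL-15 none was called without any 1 of the 4 WT and BBA libraries without cytokine, and 1 without WT replicate 1 or BBA replicate 2 with IL-15. In Tcm with IL-7 none was called without WT or BBA replicate 2 without cytokine or BBA replicate 2 with IL-7, 1 without WT replicate 1 without cytokine, 3 without WT replicate 1 with IL-7 and 4 without WT replicate 2 with IL-7. The call in Tnv with IL-7 was lost without any 1 of its 8 libraries. In Tem with IL-15 no member passed, beside 0.00954% of all genes, although the values ran from 0.32 to 1.31, 8 of 10 had an unadjusted p under 0.05 (7.73% of all genes) and DESeq2 called 5. With the replicate number as a block 6 were called there. Between WT and AAB no response of a member was called in Tnv with IL-7 (0.305% of all genes), Tnv with IL-15 (0.0286%), Tcm with IL-7 (0.314%), Tcm with IL-15 (0%) or Tem with IL-15 (0%). All 50 of these values were positive, beside 47.2% to 51.1% of all genes. Members at an unadjusted p under 0.05 numbered 2, 7, 10, 9 and 4 (7.04%, 7.51%, 10.3%, 6% and 3.25% of all genes), and DESeq2 called 0, 2, 2, 3 and 0.

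Cell states were compared only in WT cells without cytokine, and not in cells with a cytokine. In WT without cytokine no member was called in Tcm over Tnv (3.40% of all genes, 0 members and 15.7% of all genes at an unadjusted p under 0.05) or in Tem over Tcm (2.26%, with 9 members and 14.9% of all genes), and DESeq2 called none in either. Tem values lay below Tcm for all 10, from log2 -0.40 for Hspe1 to -0.10 for Hspd1. Over all 24 CD8+ groups the lowest mean was in Tem of BBA with IL-15 for 9 of 10 genes, and in Tnv of BBA with IL-15 for Cct3. The ratio of the highest to the lowest group mean was 3.76 for Hspd1, 3.66 for Hspe1, 3.53 for Hspa9 and 2.92 for Cct3, and it was least for Cct4, at 1.77. The highest mean was in Tcm for 9 of 10 genes, in WT with IL-15 for Cct3, Cct8 and Hspa9, in WT with IL-7 for Cct2, Cct5 and Hspe1, and in AAB without cytokine for Cct4, Cct7 and Hspd1, while that of Tcp1 was in WT Tnv with IL-7. The shares of all genes with these lowest and highest groups were not counted. The members varied together, so these counts are only descriptions.

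Scaled by the length of their merged exons, subunits of a ring that holds them in equal number differed in mRNA level. Per kilobase of merged exons, Cct2 was the highest of the 7 subunits and Cct5 the second in 24 of 24 CD8+ groups, and Tcp1 was the lowest in 19. The ratio of the highest to the lowest was 1.76 to 2.27 over the CD8+ groups. In the 6 CD4+ groups Cct2 was the highest in 3 and Cct5 in 3. In WT Tcm with IL-15 Cct2 was at 191 ± 15.1 CPM per kilobase (SD, n = 2), Cct5 at 182 ± 15.3, and Tcp1 at 106 ± 8.35, a gap larger than the spread of the replicates, whereas Cct2 and Cct5 differed by less than it. Hspd1, at 116 ± 18.9, had 0.401 to 0.73 times the level of Hspe1 over the 24 groups, per kilobase. Merged exons hold all annotated isoforms, so these levels depend on which isoforms the cells use.

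**Figure D4:**
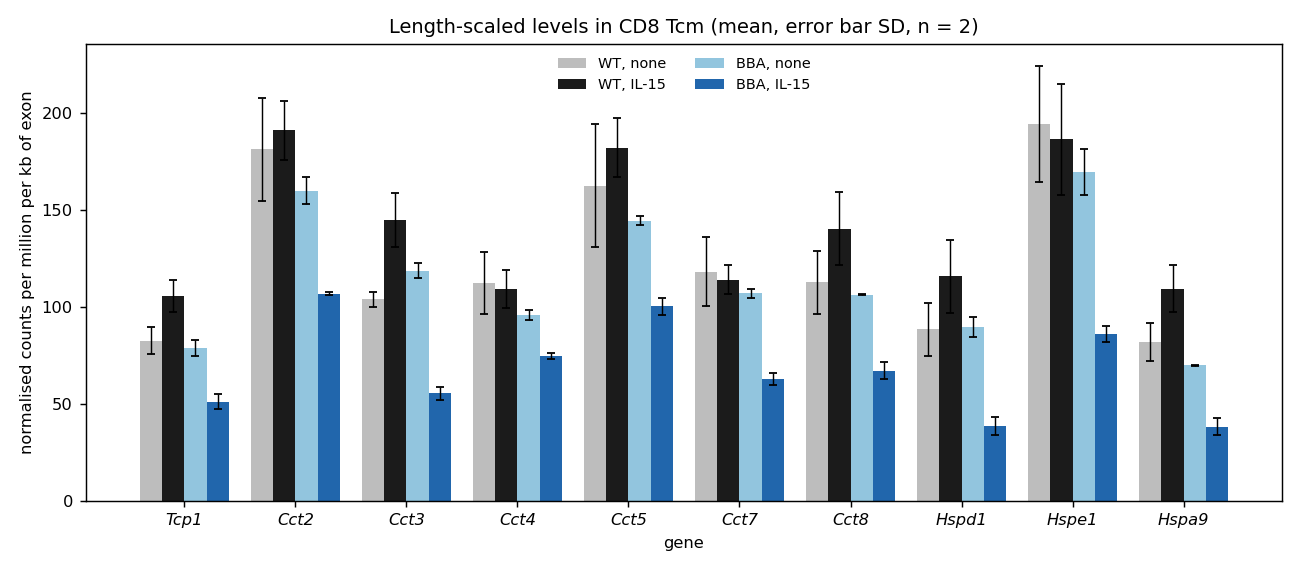
Level per kilobase of merged exons, in CPM per kilobase, of the 10 genes in WT and BBA Tcm without cytokine and with IL-15 (bars are means, error bars the SD, n = 2). Cct2 and Cct5 are the highest and second of the CCT subunits, at 191 and 182 CPM per kilobase in WT with IL-15.

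Across the 24 CD8+ group means the members varied together. Pearson's r of each with the mean of the members was 0.878 for Cct4 to 0.989 for Cct2, and the 45 pairs had r from 0.742 to 0.979, with a median of 0.912. The mean includes the gene itself, and the points share libraries of 2 per group and the same scaling, so these are descriptions with no test. Outside the members, the genes most alike over the 24 group means were Atic (r = 0.979), of purine synthesis, Cct6a (0.978), the remaining subunit of the CCT ring, Atp5b (0.967), of the mitochondrial ATP synthase, Shmt2 (0.964), of mitochondrial one-carbon metabolism, and Pitrm1 (0.962), a mitochondrial peptidase. Myc had an r of 0.818, rank 542 of 9007 genes.

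Other chaperone genes were counted by lists. In Tcm with IL-15, WT over BBA called 1 of 1 tested further CCT subunit, 2 of 6 prefoldin subunits, 0 of 3 CCT cofactors, 4 of 14 mitochondrial chaperone partners and proteases, 8 of 13 cytosolic heat shock proteins, 4 of 8 chaperones of the endoplasmic reticulum and 0 of 4 stress transcription factors, all higher in WT, beside 11.8% of all genes. Of 9 actin and tubulin genes, CCT's clients, 2 were higher (Tuba1b and Tuba4a) and 1 lower (Tubb2a). Cct6a was 256 and 212 CPM in WT, 154 and 165 CPM in AAB and 100.02 and 91.0 CPM in BBA, in the same order as the members (log2 1.24 in WT over BBA, SE 0.117, adjusted p = 0.000555). Among mitochondrial partners Trap1, an HSP90 of that organelle, was higher by 0.87, the protease Lonp1 by 0.66 and Grpel1, a nucleotide exchange factor of mitochondrial HSP70, by 0.66, whereas Dnaja3, its J-domain partner, was at 0.47 and not called. In the cytosol Hsp90ab1 was higher by 1.25 and Hspa8, the constitutive HSP70, by 1.01. In the endoplasmic reticulum Hspa5 was higher by 0.61. Prefoldin subunits Vbp1 (-0.02) and Pfdn2 (0.44), the CCT cofactor Pdcl3 (0.14) and the clients Actb (0.37) and Tubb5 (0.45) were not called. Myc, which encodes a growth regulator, was 387 and 442 CPM in WT, 140.2 and 170.1 CPM in AAB and 69.0 and 86.0 CPM in BBA, in an order that the members share (log2 2.36, SE 0.147, adjusted p = 0.00013). In BBA Tcm with IL-15 over no cytokine, 11 of 15 cytosolic heat shock genes were called as lower, beside 2.43% of all genes. So were 1 of 1 further CCT subunit, 1 of 8 chaperones of the endoplasmic reticulum and 1 of 4 stress transcription factors. Called as lower were 0 of 14 mitochondrial partners, 0 of 6 prefoldin subunits, 0 of 3 cofactors and 0 of 10 actin and tubulin genes.

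In naive CD4+ cells no member was called between genotypes. With IL-7 every WT library exceeded every BBA library for 10 of 10 members, as for 17.4% of all genes, with log2 fold changes of 0.19 to 0.40. None was over the limit of fold, 5.50% of all genes being called, but 8 of 10 had an adjusted p under 0.05, as did 12.1% of all genes. Tcp1 was 255, 254 and 244 CPM in WT, 222 and 211 CPM in AAB and 190 and 199 and 178 CPM in BBA, with log2 0.40 (SE 0.0613, adjusted p = 0.00381). No member was called in WT over AAB with IL-7 (0.611% of all genes, 6 members at an unadjusted p under 0.05), in AAB over BBA with IL-7 (1.56%, 2 members), or without cytokine in WT over BBA (1.13%, 0 members), WT over AAB (0.355%, 0 members) and AAB over BBA (0.0788%, 0 members), and DESeq2 called none in any of these 6. Of all genes, 4.37% to 13.7% were under that unadjusted p in the 5 comparisons for which members are counted here. Without cytokine all 10 members had positive log2 values in WT over BBA, with a median of 0.34, beside 50.7% of all genes. WT replicate 3 without cytokine stood apart. Hspd1 was 535 CPM in it and 197 and 176 CPM in the other WT libraries, Hspe1 225 against 98.8 and 108 CPM, Cct3 356 against 193 and 226 CPM, and Hsp90ab1 5621 against 1810 and 2188 CPM. WT over BBA for Hspd1 without cytokine was 0.94 with it and 0.24 without it. By their titles the 2 libraries with contradicting labels were AAB and BBA replicate 3 without cytokine. Only WT thus kept a replicate 3 in these comparisons, so genotype and replicate 3 cannot be told apart there.

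Hspd1 and Hspe1 were lower in WT CD4+ cells with IL-7 than in those without cytokine. Hspe1 fell from 98.8, 108 and 225 CPM to 58.2, 63.0 and 53.3 CPM (log2 -1.31, SE 0.248, adjusted p = 0.00121), and it was still called, at -0.82, without the replicate that stood apart. Hspd1 fell by 1.08 (SE 0.307, adjusted p = 0.0148), and by 0.37 without that replicate, which was no longer called. The members called were 2 in WT (16.2% of all genes), or 1 without WT replicate 3 and 3 without WT replicate 1 or 2 of the cells without cytokine. Hspe1 was the 1 member called in AAB (13.1%) and in BBA (13.6%), and the AAB call was lost when any of its 4 libraries was left out and the BBA call without any but IL-7 replicate 2. With the replicate number as a block, most members were called in AAB, all in BBA and more in WT, as counted in the closing part. No response differed between WT and BBA (1.11% of all genes) or WT and AAB (0.0192%), with 0 members at an unadjusted p under 0.05 (10.7% and 3.17% of all genes) and none by DESeq2.

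**Figure D5:**
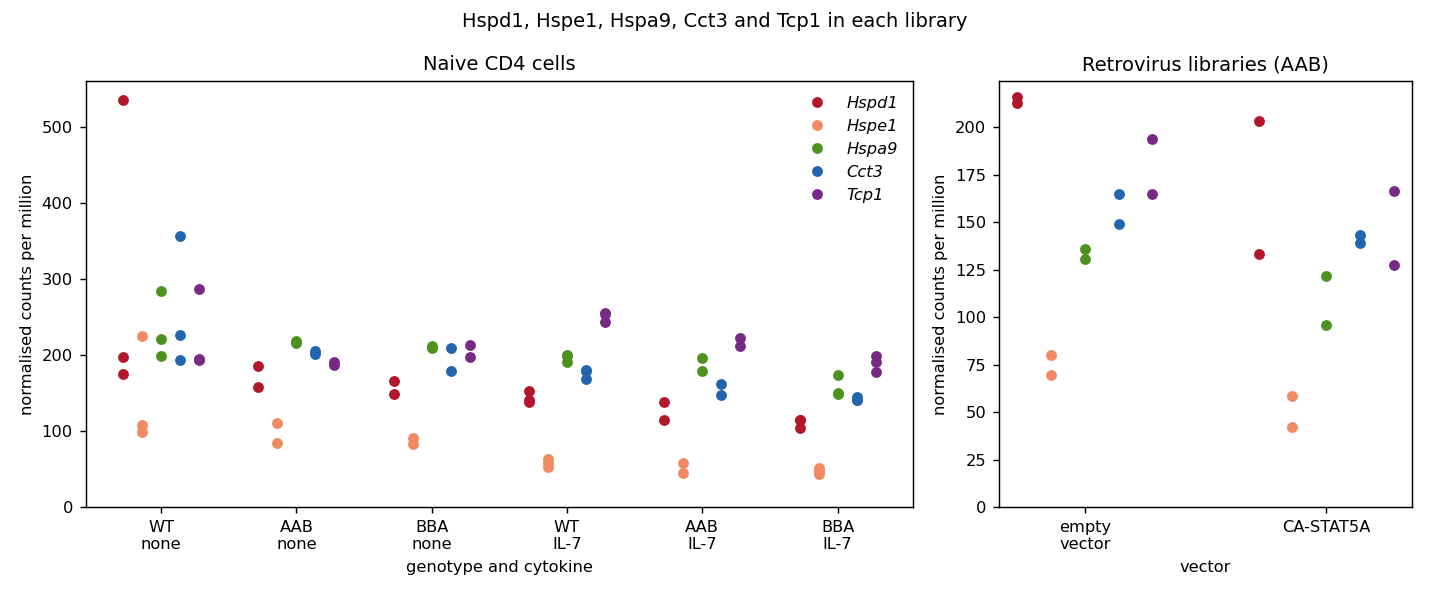
Levels in CPM of Hspd1, Hspe1, Hspa9, Cct3 and Tcp1 in naive CD4+ cells by genotype and culture, and in transduced AAB cells, with 1 point for each library. WT replicate 3 without cytokine lies above the rest for Hspd1, at 535 CPM.

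In the transduced AAB cells CA-STAT5A was not followed by higher levels of the members. Stat5a itself was 59.7 and 60.7 CPM with CA-STAT5A and 8.42 and 3.21 CPM with the empty vector. By the same quasi-likelihood test Myc was called as lower with CA-STAT5A (log2 -0.76, SE 0.158, adjusted p = 0.0375). Stat5b was called as higher (log2 1.05, SE 0.129, adjusted p = 0.00817). Their part in the values of the members was not tested. All 10 members had lower values with CA-STAT5A, by log2 -0.57 to -0.04, and none was called, beside 6.63% of all genes. Of the 10, 2 had an unadjusted p under 0.05, as did 20.4% of all genes, and DESeq2 called none. Hspd1 was 133 and 203 CPM with CA-STAT5A and 213 and 216 CPM with the empty vector, and Hspe1 was 42.4 and 58.3 CPM against 80.2 and 69.4 CPM. The cells are labelled CD8+, but Cd8a was 1.40 to 3.17 CPM and Cd8b1 0.303 to 1.56 CPM in these 4 libraries, Cd3e 2.79 to 14.8 CPM, and Ncr1, a receptor gene of NK cells, 1124 to 1453 CPM. In each vector group Ddx3y, a Y-linked gene, was near 0 in replicate 2 and 138 to 142 CPM in replicate 1, where Xist was 10.9 CPM with CA-STAT5A and 16.4 CPM with the empty vector. Summed myeloid markers were 1205 to 1338 CPM with CA-STAT5A and 486.1 to 629 CPM with the empty vector, and summed B cell markers 9.34 to 25.8 CPM and 89.5 to 146 CPM. Their part in these values was not tested, and without CA-STAT5A replicate 2, 1 member was called.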

How the data were processed

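RNA-seq was carried out on poly(A)+ RNA of sorted mouse cells labelled CD4+ or CD8+, and marker levels of the transduced cells are given above. The authors deposited raw read counts, with 1 row for each gene symbol and 1 table each for CD8+, CD4+ and transduced cells. The submitters' processing notes name TopHat2, Cufflinks, HTSeq and the build mm9, whereas the study's methods name mm10, so coordinates are given only from GRCm38 annotation by gene name. Annotation and use of strand in counting are not given in the sources used here. Summary rows of the transduced table held 67.0% to 68.4% of its counts and were left out.

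The groups came from the labels. Counts were tested with edgeR 4.0.16 (R 4.3.3), TMM scaling and glmQLFit in its older form, after the filter rule of HTSFilter (re-implemented, 100 thresholds from 1 to 200 normalized counts, loess span 0.3). Genotypes were compared within 1 condition, responses and their differences in 1 fit per cell state. p-values were adjusted by Benjamini-Hochberg over all genes tested, with limits of 0.05 and 1.5-fold. Fold changes have standard errors from the fit. Replicates were compared by a chi-square test of their counts over genes: in 38 pairs the statistic was 5.75 to 101 per degree of freedom, so none was a copy of another. Likeness used log2 CPM with a pseudocount of 0.5. The members were given by name. Among other genes only Cct6a, Vbp1, Pfdn2, Pdcl3, Grpel1, Dnaja3, Trap1, Lonp1, Hsp90ab1, Hspa8, Hspa5, Actb, Tubb5 and Myc were to be named with values, beside targeted and marker genes and the 5 genes most alike. Tuba1b, Tuba4a and Tubb2a were named after their values were seen. The members and lists were chosen with earlier results of these data known. Plain library totals, a term for sex in responses of Tcm to IL-7 and the responses of AAB and BBA by themselves were added after the data were seen. The scripts were tested on simulated data. DESeq2 1.42.0 was an alternative. Figures were drawn with matplotlib 3.10.9.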

Additional observations from a re-analysis of the deposited data

Results flagged for a closer look

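Responses to cytokine that differed between WT and BBA by their own test are listed here as log2 differences, WT minus BBA, from edgeR's quasi-likelihood test. In Tcm with IL-15 they were 1.57 for Cct3, 1.60 for Hspd1, 1.28 for Hspa9, 0.977 for Tcp1, 0.978 for Cct8, 0.913 for Hspe1, 0.688 for Cct5 and 0.655 for Cct2. In Tcm with IL-7 they were 1.06 for Hspd1 and 0.961 for Cct3. In Tnv with IL-15 they were 1.30 for Cct3 and 1.04 for Hspd1, and in Tnv with IL-7 1.12 for Hspd1. Dixon's test for an outlying sample was not applied to groups of 2 or 3 libraries.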

How the results depend on the processing

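Counts of members called moved with the processing in many comparisons. Among comparisons with members called by the main test, they moved least for WT over BBA in Tcm under IL-15. There they were 9 or 10 in every setting tried. The 77 member values that were called gave 569 values under alternatives that keep all libraries, of which 533 were called and 0 turned direction, and 365 with a library left out, of which 208 were called and 0 turned direction. The 77 had been picked for passing both limits in the same libraries, so their steady direction is no separate support. Values that were not called did turn, in 97 of 4291 and 153 of 2775 cases. Causes were not tested, except that leaving out a library reduces the samples and assumes that the remaining library varies like the other groups. With groups of 2 or 3, a count of 0 does not show that genotypes act alike.

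Counts are given as members called. With DESeq2 in place of edgeR, WT over BBA gave 3 in Tnv under IL-7, 6 in Tcm under IL-7 and 6 in Tem under IL-15, WT over AAB gave 3 in Tnv under IL-15, and AAB over BBA gave 1 in Tnv under IL-7 and 1 in Tem under IL-15. The BBA response was 1 in Tnv under IL-7 and the AAB response 2 in Tem. Differences in response from WT were 3 in Tnv under IL-7, 4 in Tnv under IL-15 and 5 in Tem for BBA, and 2 in Tnv under IL-15, 2 in Tcm under IL-7 and 3 in Tcm under IL-15 for AAB. With DESeq2's size factors and with the newer edgeR fit, WT over BBA gave 3 in Tcm under IL-7 and the difference in response in Tnv under IL-7 was 2, and with the size factors the BBA response there was 1. With plain library totals, an alternative chosen after seeing the data, the WT response was 1, the BBA response 1 and the WT minus BBA difference 2 in Tnv under IL-7, and the AAB response was 0 and the BBA response 1 in Tcm under IL-7.

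With filterByExpr as the filter, WT over BBA gave 6 in Tnv under IL-15, 5 in Tcm under IL-7 and 0 in Tem, WT over AAB gave 1 in Tnv under IL-15, AAB over BBA gave 7 in Tcm under IL-15, the BBA response was 1 in Tnv under IL-7, and the AAB response was 0 in Tcm under IL-7 and 1 under IL-15. Without a filter, WT over BBA gave 3 in Tnv under IL-7, 7 in Tnv under IL-15, 9 in Tcm under IL-7, 4 in Tem and 2 in CD4+ cells without cytokine. WT over AAB then gave 3 in Tnv under IL-15 and 1 in CD4+ cells without cytokine, AAB over BBA 1 in Tnv under IL-7 and 8 in Tcm under IL-15, the AAB response 2 in Tcm under IL-7 and 1 under IL-15, the WT minus BBA difference 2 and 4 in Tnv under IL-7 and IL-15, and the WT minus AAB difference 2 in Tnv under IL-15. In WT over BBA, Tcm under IL-15, all genes called were 2334 with the filter and 6508 without, their share higher in WT was 50.3% and 37.3%, and the median log2 fold change of all genes tested was -0.02 and -0.46. With plain totals that share was 42.1% and the median -0.09. Plain totals also moved the share of calls higher with cytokine by over 10 percentage points in most CD8+ responses (from 53.2% to 72.8% in AAB Tnv under IL-7, 64.3% to 77.5% in AAB Tnv under IL-15 and 40.5% to 61.0% in AAB Tem).

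Without the limit of fold, WT over AAB gave 5 and AAB over BBA 8 in Tcm under IL-15, WT over BBA gave 8 in CD4+ cells under IL-7, the WT response was 1 in Tnv under IL-7, 1 in Tcm under IL-15 and 6 in CD4+ cells, the AAB response 3 in Tcm under IL-7 and the BBA response 4 in CD4+ cells. In 1 fit over all cells of a lineage, WT over BBA gave 3 in Tnv under IL-7, 9 in Tcm under IL-7 and 7 in Tem, WT over AAB 3 in Tnv under IL-15, and AAB over BBA 1 in Tnv under IL-7 and 1 in Tem. With a term for sex, WT over BBA gave 0 in Tcm under IL-7, and with one in the fit over all Tcm libraries, chosen after seeing the data, the BBA response there was 1.

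Libraries with the same replicate number deviated from their group means with correlations of -0.0471 to 0.695 in CD8+ cells and 0.0905 to 0.509 in CD4+ cells, and they were over 0.1 for every pair of genotypes in 7 of 8 CD8+ conditions (all but Tcm under IL-7) and in 1 of 2 CD4+ conditions. The labels do not say that a number marks a shared trial, and CD8+ groups hold only 2 libraries. The numbers were therefore not taken to pair them, and a shared trial was not tested beyond these correlations. With the replicate block, WT over BBA gave 3 in Tnv under IL-7 and 6 in Tem, WT over AAB 3 in Tnv under IL-15 and AAB over BBA 3 in Tem. The WT response was 1 in Tcm under IL-7, 1 under IL-15 and 5 in CD4+ cells. The AAB response was 1 in Tnv under IL-7, 0 in Tcm under IL-7, 1 in Tcm under IL-15 and 7 in CD4+ cells, and the BBA response 4 in Tem and 10 in CD4+ cells. The WT minus BBA difference under the block was 4 in Tnv under IL-7, 4 in Tnv under IL-15 and 6 in Tem, and the WT minus AAB difference 2 in Tnv under IL-15 and 1 in Tcm under IL-7.

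With each library left out in turn, WT over BBA ranged from 0 to 0 in Tnv under IL-7, 1 to 4 in Tnv under IL-15, 0 to 7 in Tcm under IL-7 and 0 to 0 in Tem. WT over AAB ranged from 0 to 3 in Tcm under IL-15 and 0 to 2 in Tcm under IL-7, where 2 were called without WT replicate 2. AAB over BBA ranged from 0 to 3 in Tcm under IL-15 and 0 to 1 in Tnv under IL-7, where 1 was called without AAB replicate 2. The WT response ranged from 0 to 1 in Tnv under IL-7 (1 without replicate 1 without cytokine or replicate 2 under IL-7), 0 to 1 in Tcm under IL-7 (1 without replicate 1 under IL-7) and 1 to 3 in CD4+ cells. The AAB response ranged from 0 to 2 in Tnv under IL-7 (2 without replicate 1 under IL-7), 0 to 0 in Tcm with either cytokine, 0 to 1 in Tem and 0 to 0 in CD4+ cells. The BBA response ranged from 0 to 2 in Tnv under IL-7, 0 to 2 in Tcm under IL-7, 2 to 7 in Tcm under IL-15, 3 to 8 in Tem and 0 to 1 in CD4+ cells. The WT minus BBA difference ranged from 0 to 0 in Tnv under IL-7, 0 to 2 in Tnv under IL-15, 0 to 4 in Tcm under IL-7 and 4 to 7 in Tcm under IL-15. The WT minus AAB difference ranged from 0 to 3 in Tcm under IL-7, with 1 and 3 called without WT replicates 1 and 2 under IL-7. CA-STAT5A over the empty vector ranged from 0 to 1.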

Other observations

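The 2 CD4+ libraries whose labels contradict each other on the cytokine gave Hspd1 at 273 and 174 CPM, Hspe1 at 135 and 84.3 CPM, Cct3 at 294 and 258 CPM and Tcp1 at 229 and 221 CPM. By title they were AAB and BBA cells without cytokine, in that order. They belong to no group and entered no comparison.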
